A study of Saccharomyces cerevisiae with 12 samples.

Results

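The genes described here encode proteins of the yeast cell wall, proteases that process them, and a pair of regulators of wall repair. They are the PIR family genes PIR1, PIR3, HSP150 and CIS3, the mannoprotein gene HPF1, the yapsin genes YPS1, YPS3 and YPS6, and the genes of the cell integrity kinase SLT2 and its transcription factor RLM1. They were chosen by gene symbol, with the differences between the 6 groups of arrays already known. The values below therefore describe these 10 genes, and the p-values beside them place each value in a fit over all genes rather than giving independent evidence. Each member had 1 probe set that carried its symbol alone, and all 10 were among the 5369 genes tested.

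Transcripts of the budding yeast Saccharomyces cerevisiae had been measured on 12 one-colour Affymetrix arrays. The mutant strains carry the TFIIH substitutions C403A and C406A, and the third strain is their wild type. TFIIH unwinds DNA at promoters as RNA polymerase II starts transcription, and it does so too in nucleotide excision repair. Each strain was sampled after 30 minutes in 0.03% methyl methanesulfonate (MMS), an agent that methylates DNA, and untreated. The groups are C403A with MMS, C403A untreated, C406A with MMS, C406A untreated, wild type with MMS and wild type untreated, with 2 arrays each. The labels give no strain background, mutated subunit, age of culture or copy number of the mutant alleles. The residues changed are known to belong to the RING finger of Ssl1, a core subunit of TFIIH.

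The yeast wall is a mesh of glucan and chitin with an outer coat of mannoproteins. PIR proteins, named for their internal repeats, are heavily O-mannosylated and are bound directly to glucan. Yapsins are aspartyl proteases held at the cell surface by a lipid anchor, which cut wall and secreted proteins after basic residues. Stress on the wall is sensed by membrane proteins of the WSC and MID families and passed through protein kinase C to the MAP kinase Slt2, which phosphorylates Rlm1. Rlm1 in turn activates many wall genes, PIR genes among them.

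Array medians of the deposited intensities lay between 184.03 and 310.187, and the values below are quantile-normalized intensities in arbitrary units, which cannot be compared between genes. The number of arrays limits the precision. The labels do not say whether a group's pair of arrays held RNA of separate cultures, and the p-values then reflect array-to-array spread that may be technical. The numbers in the array labels run 1 strain after another, and untreated before MMS within each strain. What they count is not given. If they follow the order of processing, that order cannot be told apart from strain or from treatment. SSL1 intensity in untreated cells averaged 4931 ± 128 in C403A and 3588 ± 146 in C406A, against 1716 ± 26.5 in wild type (SD, n = 2 each). The pheromone receptor gene of MATa cells, STE2, ran from 2001 to 3069 over the arrays, and that of MATalpha cells, STE3, from 125 to 213. Another alpha-specific transcript, MF(ALPHA)2, was higher in C403A than in wild type with MMS by a log2 difference of 1.54 ± 0.10 (adjusted p = 4.0e-05, limma). It was also higher in untreated C403A (0.59 ± 0.10, adjusted p = 0.00581) and in C406A with MMS (0.72 ± 0.10, adjusted p = 0.00498, limma). The other alpha-specific transcripts tested, STE3, MF(ALPHA)1 and SAG1, did not pass in C403A with MMS (log2 differences of -0.26, -0.40 and 0.10). Of the MATa transcripts, STE6 was lower in C403A with MMS (-0.41 ± 0.10, adjusted p = 0.0276, limma), a call lost without any 1 of the 4 arrays compared. Values are log2 differences ± the standard error of the limma contrast, adjusted p is Benjamini-Hochberg adjusted over the 5369 genes, and a gene is said to pass, rise or fall at an adjusted p under 0.05.

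The main picture was that the mutants differed from wild type in opposite directions at different members, PIR1 and PIR3 of the PIR family among them. PIR1 and HPF1 fell in both mutants with MMS and in untreated C403A, PIR3 rose in all 4 comparisons and YPS3 in both untreated mutants, and HSP150, CIS3 and SLT2 passed in no comparison. In untreated C403A, 3 of 10 members rose, where 9.16% of all genes did, and 2 fell, where 4.97% did. In untreated C406A, 2 members rose (1.83% of all genes) and 0 fell (0.875%). With MMS, 1 member rose in C403A (7.47% of all genes) and 3 fell (6.09%), while in C406A 1 rose (2.72%) and 2 fell (1.81%). The median difference over the 10 members was 0.10 in both untreated comparisons, against 0.03 over all genes for C403A and 0.00 for C406A, and with MMS it was -0.16 for C403A and -0.09 for C406A, against 0.01 and -0.02. Of the 25 calls among members, 20 were lost under at least 1 of 20 alternative settings. The 5 that held under all of them were the falls of PIR1 and HPF1 in C403A with MMS, and the rises with MMS of YPS1 and YPS6 in wild type and of YPS6 in C406A. Scaling to the hybridization controls moved the median of all genes to -0.23 in untreated C403A and to -0.27 in C403A with MMS. On that scale 0 members rose and 2 fell in untreated C403A, and 0 rose and 4 fell in C403A with MMS. The shares of all genes that passed on that scale are not given here, so these counts describe the members alone. Since the members were picked with these contrasts in view, nothing is read from their counts against the background.

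**Figure D1:**
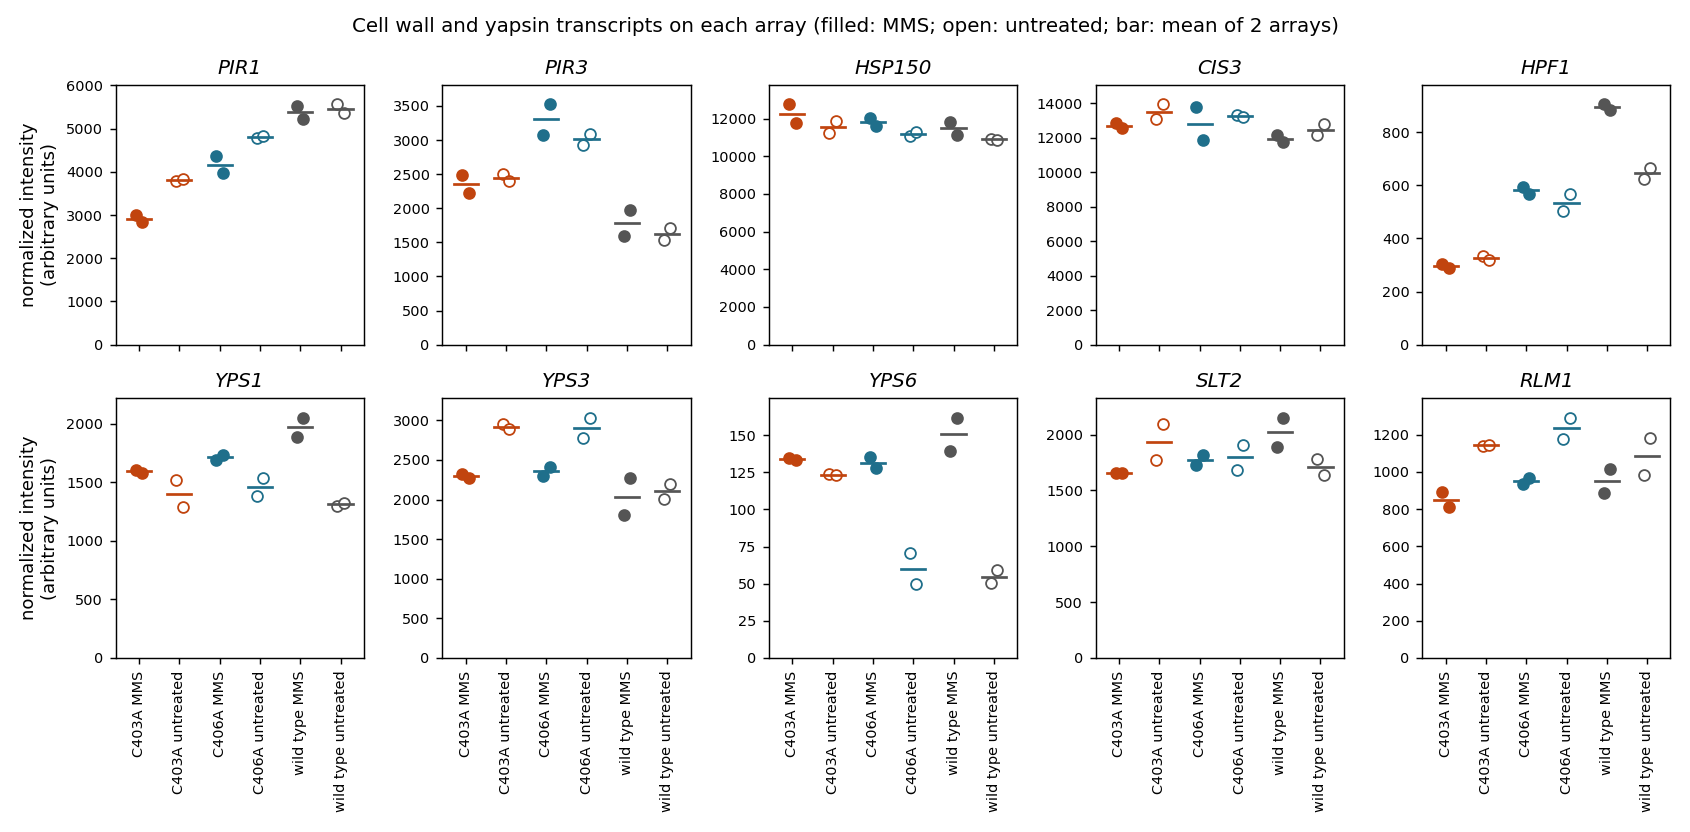
Normalized intensity (arbitrary units, linear axis from 0) of each of the 10 genes on all 12 arrays, with the 6 groups along the horizontal axis, filled points for MMS, open points for untreated cells and a bar at the mean of 2 arrays. PIR1 and HPF1 lie lower in C403A and C406A than in wild type at the same treatment, PIR3 lies higher in both mutants, and YPS6 is low only in untreated C406A and untreated wild type.

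PIR1, the first named gene of the PIR family, was lowest in C403A. With MMS its intensity was 3000.4 and 2834 in C403A and 4367 and 3972 in C406A, against 5527 and 5230.4 in wild type. In untreated cells it was 3780.2 and 3846 in C403A and 4779 and 4832 in C406A, against 5567 and 5364 in wild type. The arrays of neighbouring groups in the order of levels did not overlap, except those of treated and untreated wild type. PIR1 fell in C403A by 0.88 ± 0.06 on the log2 scale with MMS (1.84-fold lower, adjusted p = 4.0e-05, limma) and by 0.52 ± 0.06 without it (1.43-fold, adjusted p = 0.000867). In C406A it fell by 0.37 ± 0.06 with MMS (adjusted p = 0.00808), and the untreated difference was -0.19 ± 0.06 and did not pass (adjusted p = 0.128, limma). Leaving out wild-type MMS array 1 (-0.33, adjusted p = 0.0698) or C406A MMS array 2 (-0.30, adjusted p = 0.0641) ended the C406A call with MMS. That call was also lost under median scaling, as deposited, on hybridization controls and with the compared groups alone. The smallest difference over all settings was -0.22. For untreated C403A, the call of PIR1 was lost as deposited and with the compared groups alone.

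PIR1 fell with MMS in both mutants. The log2 difference between treated and untreated cells was -0.39 ± 0.06 in C403A (adjusted p = 0.00246), -0.21 ± 0.06 in C406A (adjusted p = 0.0277) and -0.02 ± 0.06 in wild type (adjusted p = 0.794, limma). The C403A call was lost on the values as deposited and with the compared groups alone. The difference between the C403A and the wild-type response was -0.36 ± 0.08 and did not pass (adjusted p = 0.0740), so the responses of these strains were not shown to differ. Leaving out either untreated C406A array (-0.21 with adjusted p = 0.0998, and -0.20 with adjusted p = 0.128) or C406A MMS array 2 (-0.14, adjusted p = 0.173) ended the C406A call, and the value was 0.11 on the values as deposited, where the median over all genes was 0.43.

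PIR3, the divergently oriented neighbour of PIR1 in the R64 annotation, differed the other way. Its intensity with MMS was 2489 and 2220.4 in C403A and 3080.3 and 3527 in C406A, against 1594 and 1970.2 in wild type. Untreated cells gave 2501 and 2397 in C403A and 2925 and 3093 in C406A, against 1542 and 1714 in wild type. Each mutant array exceeded each wild-type array, and the 4 C406A arrays exceeded the 4 C403A arrays. PIR3 rose in C406A by 0.90 ± 0.11 with MMS (adjusted p = 0.00294) and by 0.89 ± 0.11 without it (adjusted p = 0.00435, limma). In C403A it rose by 0.41 ± 0.11 with MMS (adjusted p = 0.0361) and by 0.59 ± 0.11 without it (adjusted p = 0.00787, limma). Scaled to hybridization controls, these C403A values were 0.13 and 0.38, and neither passed (limma).

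The response of PIR3 to MMS passed in none of the strains. It was -0.06 ± 0.11 in C403A, 0.13 ± 0.11 in C406A and 0.12 ± 0.11 in wild type (adjusted p = 0.787, 0.415 and 0.419 in that order, limma). Among the rises of PIR3, the one in untreated C403A was lost without wild-type untreated array 1 (0.51, adjusted p = 0.0514) and the one in untreated C406A without C406A untreated array 2 (0.85, adjusted p = 0.0504). The rise in C403A with MMS ended when the first treated wild-type array was left out (0.25, adjusted p = 0.201), and also without either treated C403A array (0.33 and 0.49, adjusted p = 0.214 and 0.0653) or either untreated C406A array (0.41, adjusted p = 0.0570 in each case).

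HSP150 and CIS3, the other PIR family genes, lie next to each other in the annotation and passed in none of the comparisons. HSP150 encodes a PIR protein that is also secreted and is known for heat induction, and CIS3 encodes a short PIR protein. HSP150 ran from 11762 to 12764 in C403A with MMS and from 11626 to 12022 in C406A with MMS, against 11121 to 11838 in wild type with MMS. In untreated cells HSP150 ran from 11214 to 11888 in C403A and from 11088 to 11300.3 in C406A, against 10859 to 10919 in wild type. CIS3 ran from 12531 to 12848 in C403A with MMS and from 11838 to 13772 in C406A with MMS, against 11762 to 12133 in wild type with MMS. In untreated cells CIS3 ran from 13071 to 13941 in C403A and from 13173 to 13318 in C406A, against 12133 to 12764 in wild type. Both genes had all untreated mutant arrays above the untreated wild-type arrays, as did CIS3 in C403A with MMS, and the other mutant and wild-type groups with MMS overlapped. Over all 12 arrays the highest level was 1.18 times the lowest for HSP150 and 1.19 times for CIS3. The 7 differences other than interactions ran from 0.04 to 0.09 for HSP150 (standard error 0.05, lowest adjusted p = 0.270) and from -0.09 to 0.12 for CIS3 (standard error 0.07, lowest adjusted p = 0.267, limma). Both probe sets stood above the 99th percentile of gene intensities on these arrays, at 99.6% and 99.7%, and whether signal there follows transcript amount in proportion was not tested.

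HPF1, which encodes a heavily glycosylated mannoprotein known from wine for reducing protein haze, showed the largest fall in the set. Its intensity with MMS was 305 and 289.8 in C403A and 594 and 568 in C406A, against 906 and 884 in wild type. Untreated cells gave 334 and 319 in C403A and 503 and 568 in C406A, against 624 and 667 in wild type. No neighbouring groups overlapped in the order of levels, with wild type with MMS at the top and C403A with MMS at the bottom, but treated and untreated C406A met at 568. HPF1 fell in C403A by 1.59 ± 0.08 with MMS (3.01-fold lower, adjusted p = 1.1e-05) and by 0.98 ± 0.08 without it (1.98-fold lower, adjusted p = 0.000245, limma). In C406A it fell by 0.62 ± 0.08 with MMS (1.54-fold lower, adjusted p = 0.00393), and the untreated difference of -0.27 ± 0.08 did not pass (adjusted p = 0.127, limma). The C406A call with MMS was lost as deposited and on hybridization controls (-0.63 and -0.58, adjusted p = 0.393 and 0.152, limma).

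HPF1 rose with MMS in wild type, by 0.47 ± 0.08 (adjusted p = 0.00213), and the differences of -0.13 ± 0.08 in C403A and 0.12 ± 0.08 in C406A did not pass (adjusted p = 0.322 and 0.326, limma). The wild-type call was lost on scaling to hybridization controls (adjusted p = 0.115, limma). The C403A response differed from the wild-type response by -0.61 ± 0.12 (adjusted p = 0.0486), a call that was lost when any 1 of the 12 arrays was left out (-0.66 to -0.56, adjusted p 0.0615 to 0.144). For C406A the difference of responses was -0.35 ± 0.12 and did not pass (adjusted p = 0.482, limma). A further probe set annotated to both HPF1 and CSS1, a gene related to it, was not used in the fit and gave 271 and 309 in C403A and 567 and 531 in C406A with MMS, against 872 and 929 in wild type with MMS. In untreated cells that probe set gave 305 and 287 in C403A and 415 and 464 in C406A, against 592 and 513 in wild type. Its groups stood in the same order as those of the HPF1 probe set between strains at each treatment. Within C406A the probe sets differed. The treated arrays of the shared probe set (567 and 531) lay clear of its untreated ones (415 and 464), whereas those of the HPF1 probe set met.

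**Figure D2:**
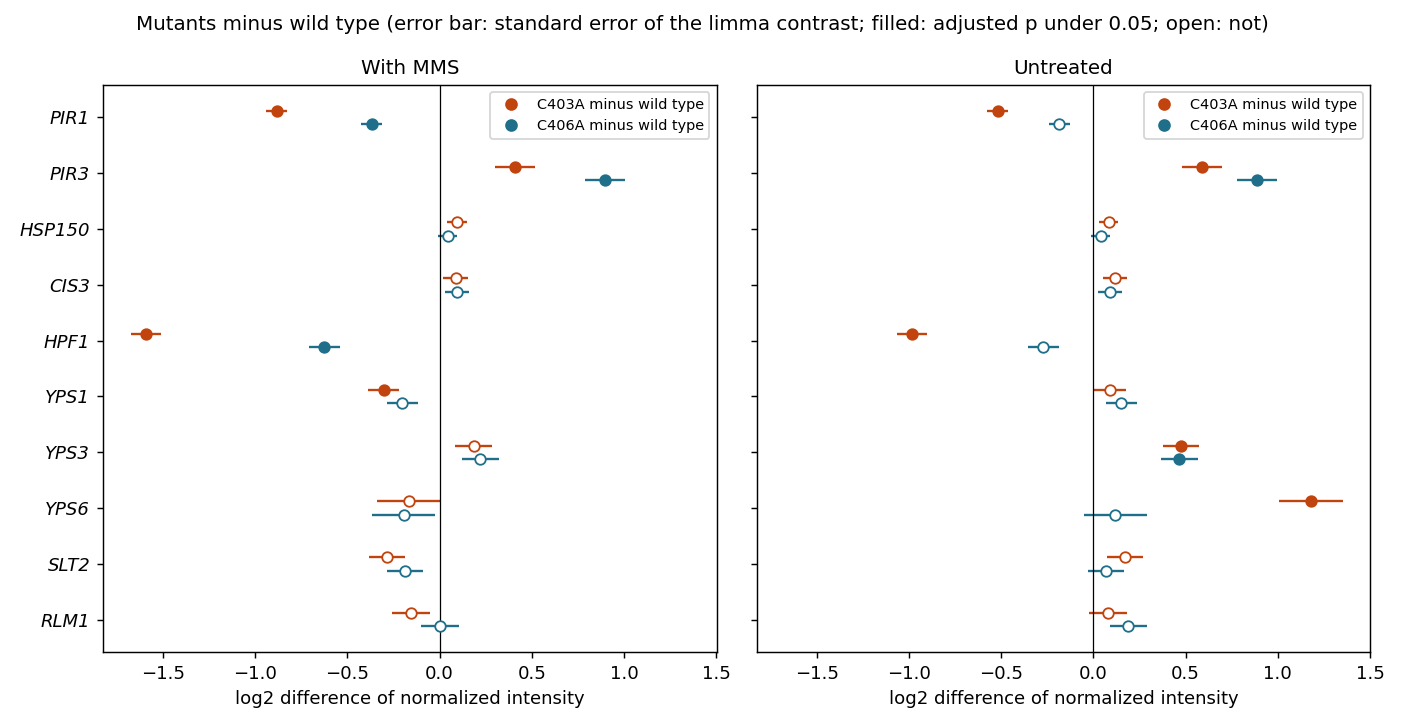
Log2 difference of normalized intensity, mutant minus wild type, for each of the 10 genes with MMS and untreated, with C403A above C406A in each row, error bars of 1 standard error of the limma contrast, and filled points where adjusted p was under 0.05. HPF1 and PIR1 lie left of 0 and PIR3 right of it in all 4 comparisons, while HSP150 and CIS3 stay within 0.12 of 0.

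Among the yapsins, YPS1, which encodes the founding member of these proteases, was marked by its induction in wild type. Its intensity with MMS was 1609 and 1582 in C403A and 1689 and 1736 in C406A, against 1888 and 2052 in wild type. Untreated cells gave 1519 and 1289 in C403A and 1384 and 1538 in C406A, against 1300.3 and 1327 in wild type. In each strain both treated arrays exceeded both untreated ones, and wild type with MMS was highest. YPS1 rose with MMS by 0.58 ± 0.09 in wild type (adjusted p = 0.000778), and the differences of 0.19 ± 0.09 in C403A and 0.23 ± 0.09 in C406A did not pass (adjusted p = 0.174 and 0.0772, limma). The C403A response was lower than the wild-type one by 0.39 ± 0.12, which did not pass (adjusted p = 0.156, limma). With MMS, YPS1 fell in C403A by 0.30 ± 0.09 (adjusted p = 0.0431), a call lost without any 1 array other than the untreated C403A arrays (-0.36 to -0.24, adjusted p 0.0525 to 0.201, limma).

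YPS3, adjacent to YPS1 on the same strand and encoding a related yapsin, was higher in the untreated mutants. Its intensity in untreated cells was 2952 and 2888 in C403A and 2775 and 3036 in C406A, against 2005 and 2201 in wild type. With MMS it was 2324 and 2271 in C403A and 2299 and 2414 in C406A, against 1800.3 and 2269 in wild type. The untreated mutants stood above all other groups, and the treated mutant arrays lay above both treated wild-type arrays. YPS3 rose in untreated C403A by 0.47 ± 0.10 (adjusted p = 0.0137) and in untreated C406A by 0.47 ± 0.10 (adjusted p = 0.0426, limma). Scaled to hybridization controls, the untreated differences were 0.26 and 0.22 and did not pass (adjusted p = 0.227 and 0.259, limma), and as deposited neither passed. With MMS the differences were 0.18 ± 0.10 and 0.22 ± 0.10 and did not pass (adjusted p = 0.260 and 0.239, limma).

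The MMS response of YPS3 was -0.35 ± 0.10 in C403A (adjusted p = 0.0430), -0.30 ± 0.10 in C406A (adjusted p = 0.0531) and -0.06 ± 0.10 in wild type (adjusted p = 0.710, limma). The C403A response was lost without any 1 array other than the MMS-treated wild-type arrays (-0.36 to -0.33, adjusted p 0.0522 to 0.163). The untreated C406A rise was lost without any of 8 arrays, all but the MMS-treated wild-type and the untreated C403A arrays (0.40 to 0.53, adjusted p 0.0609 to 0.273). The untreated C403A rise was lost without wild-type untreated array 1 (0.41, adjusted p = 0.0798) or C403A untreated array 2 (0.49, adjusted p = 0.0545, limma).

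YPS6, a yapsin family gene of less known function, had the largest rises of the set on a dim probe set. Its intensity with MMS was 135 and 133 in C403A and 135 and 128 in C406A, against 140 and 162 in wild type. Untreated cells gave 124 and 123 in C403A and 70.4 and 49.5 in C406A, against 50.2 and 59.0 in wild type. Untreated C403A thus stood apart from the other untreated groups and close to the treated ones, and no array lay at the intensity floor of 34.5. YPS6 rose with MMS by 1.47 ± 0.17 in wild type (adjusted p = 0.000241) and by 1.15 ± 0.17 in C406A (adjusted p = 0.00141), and the difference of 0.12 ± 0.17 in C403A did not pass (adjusted p = 0.709, limma). In untreated cells YPS6 rose by 1.18 ± 0.17 in C403A (adjusted p = 0.00270), against 0.12 ± 0.17 in C406A, which did not pass (adjusted p = 0.783, limma). The untreated C403A rise was 0.75 on scaling to hybridization controls (adjusted p = 0.0670) and was lost with the compared groups alone (adjusted p = 0.0786, limma). The C403A response to MMS was lower than the wild-type one by 1.35 ± 0.24 (adjusted p = 0.0371), and the C406A response by 0.31 ± 0.24, which did not pass (adjusted p = 0.727, limma). The first of these calls was lost without any 1 array other than the untreated C406A arrays (-1.46 to -1.23, adjusted p 0.0590 to 0.117).

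A probe set annotated to both YPS6 and YPS5, another member of the family, was not part of the fit and was less clear. In untreated cells it gave 197 and 101 in C403A and 131 and 146 in C406A, against 92.0 and 139 in wild type. With MMS it gave 194 and 199 in C403A and 199 and 221 in C406A, against 184 and 161 in wild type. The treated arrays lay above the untreated ones in C406A and wild type, but the untreated C403A and wild-type arrays overlapped. On that probe set the rise in untreated C403A was therefore not seen beyond the spread of its 2 arrays.

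**Figure D3:**
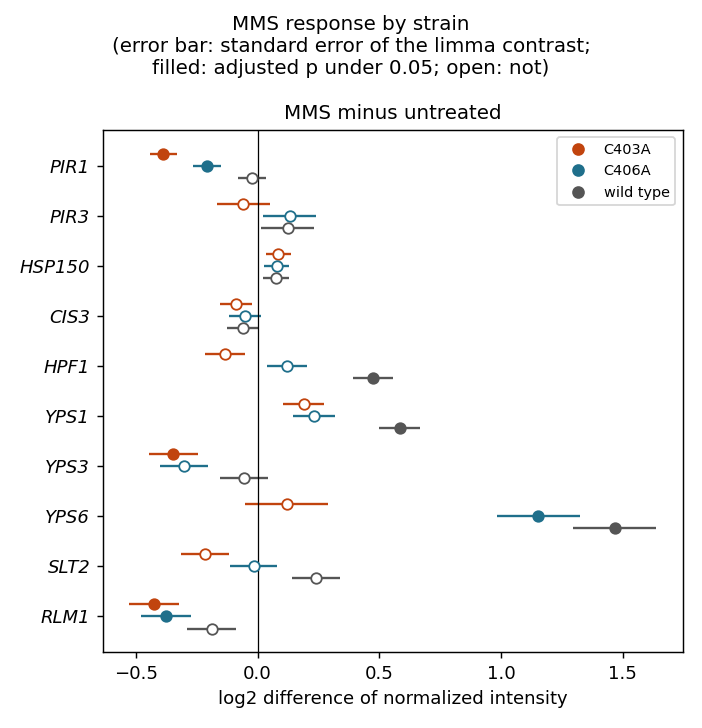
Log2 difference of normalized intensity, MMS minus untreated, for each of the 10 genes in C403A, C406A and wild type (top to bottom within a row), with error bars of 1 standard error of the limma contrast and filled points where adjusted p was under 0.05. YPS6 rose in wild type by 1.47 and in C406A by 1.15, YPS1 and HPF1 rose in wild type, and PIR1 and RLM1 fell in both mutants.

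SLT2, the gene of the cell integrity MAP kinase, passed in no comparison. Its intensity with MMS was 1656 and 1657 in C403A and 1729 and 1815 in C406A, against 1893 and 2153 in wild type. Untreated cells gave 1772 and 2093 in C403A and 1686 and 1905 in C406A, against 1785 and 1636 in wild type. All groups overlapped with their neighbours in the order of levels. With MMS the difference of C403A from wild type was -0.28 ± 0.10 (adjusted p = 0.0850), and its interaction with MMS was -0.46 ± 0.14 (adjusted p = 0.154, limma). The arrays give the transcript of this kinase and not its phosphorylation.

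RLM1, the gene of the MADS-box factor that Slt2 phosphorylates, was lower with MMS in both mutants. Its intensity in C403A was 889 and 813 with MMS and 1139 and 1144 untreated. In C406A it was 934 and 965 with MMS, against 1175 and 1291 untreated, and in wild type it was 885 and 1013 with MMS and 984 and 1184 untreated. The treated and untreated arrays did not overlap in the mutants and did in wild type. RLM1 fell with MMS by 0.43 ± 0.10 in C403A (adjusted p = 0.0211) and by 0.38 ± 0.10 in C406A (adjusted p = 0.0255), and the wild-type difference of -0.19 ± 0.10 did not pass (adjusted p = 0.186, limma). The interaction terms were -0.24 ± 0.14 for C403A and -0.19 ± 0.14 for C406A and did not pass (adjusted p = 0.470 and 0.726, limma). Each mutant response lost its call without any 1 of the 4 arrays compared (C403A -0.49 to -0.36, adjusted p 0.0593 to 0.122; C406A -0.44 to -0.31, adjusted p 0.0550 to 0.156), and on the values as deposited the C406A value was 0.073.

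Over the MMS responses, 0 members rose in C403A (8.42% of all genes) and 3 fell (7.13%), in C406A 1 rose (12.7%) and 2 fell (11.2%), and in wild type 3 rose (19.1%) and 0 fell (13.9%). The interaction between C403A and MMS passed for 2 members, both lower, where 0.317% of all genes passed higher and 0.671% lower. The interaction between C406A and MMS passed for 0 members and 0 genes in either direction (0%, limma), and 451 genes had an unadjusted p under 0.05 there. The interaction estimates of C403A ran from -1.35 (YPS6) to 0.01 (HSP150), and the median over the members was -0.33, against -0.02 over all genes. For C406A the interaction estimates ran from -0.35 to 0.0075, and their median was -0.22, against -0.02 over all genes. Both interactions subtract the response of the same wild-type arrays, so their estimates are not independent of each other. Since the members were picked with these contrasts in view, nothing is read from the medians. The 3 MMS responses and the 4 strain comparisons share groups of arrays, so their values are not independent of each other.

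Members next to each other on a chromosome had low or negative correlations across the 12 arrays. Pearson's r between arrays was -0.42 for PIR1 and PIR3, 0.24 for HSP150 and CIS3, and -0.34 for YPS1 and YPS3, whereas PIR1 and HPF1, which lie on different chromosomes (XI and XV), had an r of 0.88. These values describe 12 arrays that fall into 6 groups, and carry no test. HSP150 and CIS3 varied little, with the highest level 1.18 and 1.19 times the lowest. Their r therefore says little about whether they share a pattern. The genes most like PIR1 were the phosphate transporter gene PHO84 (r = 0.97), the polyphosphate synthesis gene VTC3 (0.96) and the exoglucanase gene EXG1 (0.96). HPF1 was most like the lactate dehydrogenase gene CYB2 (0.97), PNS1 (0.96) and the mitochondrial ribosomal protein gene MRPL3 (0.95). PIR3 was most like the succinate dehydrogenase genes SDH4 (0.94) and SDH2 (0.91), and YPS3 was most like the wall protein gene DFG5 (0.96). For YPS1 the closest gene was RKM1 (0.99), for YPS6 RMR1 (0.96), and for RLM1 YOR338W (0.95), over the same 12 arrays.

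Other genes of the wall were followed in 5 lists, which were also drawn up with earlier results known and hold 111 tested genes, 11 of them in more than 1 list. Of 19 other tested targets of wall stress signalling, 6 rose and 0 fell in untreated C403A, where 9.16% of all genes rose and 4.97% fell. In untreated C406A 3 rose and 0 fell, where 1.83% and 0.875% of all genes did. With MMS, 2 rose and 3 fell in C403A (7.47% and 6.09% of all genes), and 3 rose and 0 fell in C406A (2.72% and 1.81%). The list's median in untreated cells was 0.15 in C403A and 0.20 in C406A, against 0.03 and 0.00 over all genes. With MMS it was -0.11 in C403A and 0.10 in C406A, against 0.01 and -0.02. In C403A with MMS the differences of CHS1 and KDX1 were -0.51 ± 0.09 (adjusted p = 0.00838) and -0.38 ± 0.11 (adjusted p = 0.0465, limma). The CHS1 call was lost without C403A MMS array 1 and the KDX1 call without any of 10 arrays. GSC2, which encodes the inducible glucan synthase subunit, gave 1190.4 and 1276 in untreated C403A and 782 and 726 in untreated C406A, against 299 and 287 in untreated wild type. It rose by 2.07 ± 0.21 in untreated C403A (4.20-fold, adjusted p = 0.000640) and by 1.36 ± 0.21 in untreated C406A (adjusted p = 0.0126, limma). With MMS it rose by 1.55 ± 0.21 in C403A (adjusted p = 0.00208) and by 0.89 ± 0.21 in C406A (adjusted p = 0.0492, limma).

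GSC2 had 7 probe sets, of which the brightest over all arrays was used. That choice rested on the mutant arrays. In untreated wild type the probe set used averaged 293, below the 417 of the next brightest. The log2 differences of the next brightest were 0.76 and 0.44 in untreated C403A and C406A, and 0.82 and 0.54 with MMS. With the mean of the 7 probe sets, several of them at the floor, the untreated values were 0.66 (adjusted p = 0.00813) and 0.38 (adjusted p = 0.142, limma). With MMS those means gave 0.59 in C403A (adjusted p = 0.0142) and 0.23 in C406A (adjusted p = 0.319, limma). The untreated C406A call was also lost without either array of either group (1.31 to 1.41, adjusted p 0.0616 to 0.0920), and the MMS call in C406A was lost without any array but wild-type MMS array 2 (0.48 to 0.94, adjusted p 0.0617 to 0.231). NFG1, listed as YLR042C, rose in all 4 comparisons, by 1.10 ± 0.08 and 0.90 ± 0.08 in untreated C403A and C406A and by 1.02 ± 0.08 and 1.01 ± 0.08 with MMS (adjusted p from 0.000146 to 0.00120, limma). Its call in untreated C406A was lost on the values as deposited and on scaling to hybridization controls.

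Of 26 tested genes of cell integrity signalling, 1 rose and 1 fell in untreated C403A, where 9.16% of all genes rose and 4.97% fell. With MMS, 0 rose and 3 fell in C403A (7.47% and 6.09% of all genes). In C406A 0 passed under either condition, where at most 2.72% of all genes passed in a direction. The list's medians lay between -0.07 and 0.03. WSC4, a membrane sensor gene, gave 124 and 118 in C403A with MMS, against 209 and 227 in wild type with MMS. It fell there by 0.85 ± 0.10 (adjusted p = 0.00132, limma), a call lost on the values as deposited (adjusted p = 0.125, limma).

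Of 35 other tested mannoprotein genes, 6 rose and 4 fell in untreated C403A (9.16% and 4.97% of all genes), and 6 rose and 3 fell in untreated C406A (1.83% and 0.875%). With MMS, 7 rose and 5 fell in C403A (7.47% and 6.09% of all genes), and 5 rose and 4 fell in C406A (2.72% and 1.81%). YGP1, a secreted glycoprotein gene known from nutrient stress, gave 7111 and 6981 in untreated C403A and 6721 and 6721 in untreated C406A, against 4192 and 3972 in untreated wild type. It rose by 0.79 ± 0.05 in C403A (adjusted p = 3.7e-05) and by 0.72 ± 0.05 in C406A (adjusted p = 0.000172, limma). The calls of YGP1 in both untreated mutants were lost with the compared groups alone. That in C406A was also lost as deposited and on hybridization controls. AGA1, which encodes the anchor subunit of the mating agglutinin, gave 964 and 777 in untreated C403A and 1014 and 1076 in untreated C406A, against 2146 and 1855 in untreated wild type. It fell by 1.20 ± 0.12 in C403A (adjusted p = 0.000464) and by 0.93 ± 0.12 in C406A (adjusted p = 0.00435, limma).

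**Figure D4:**
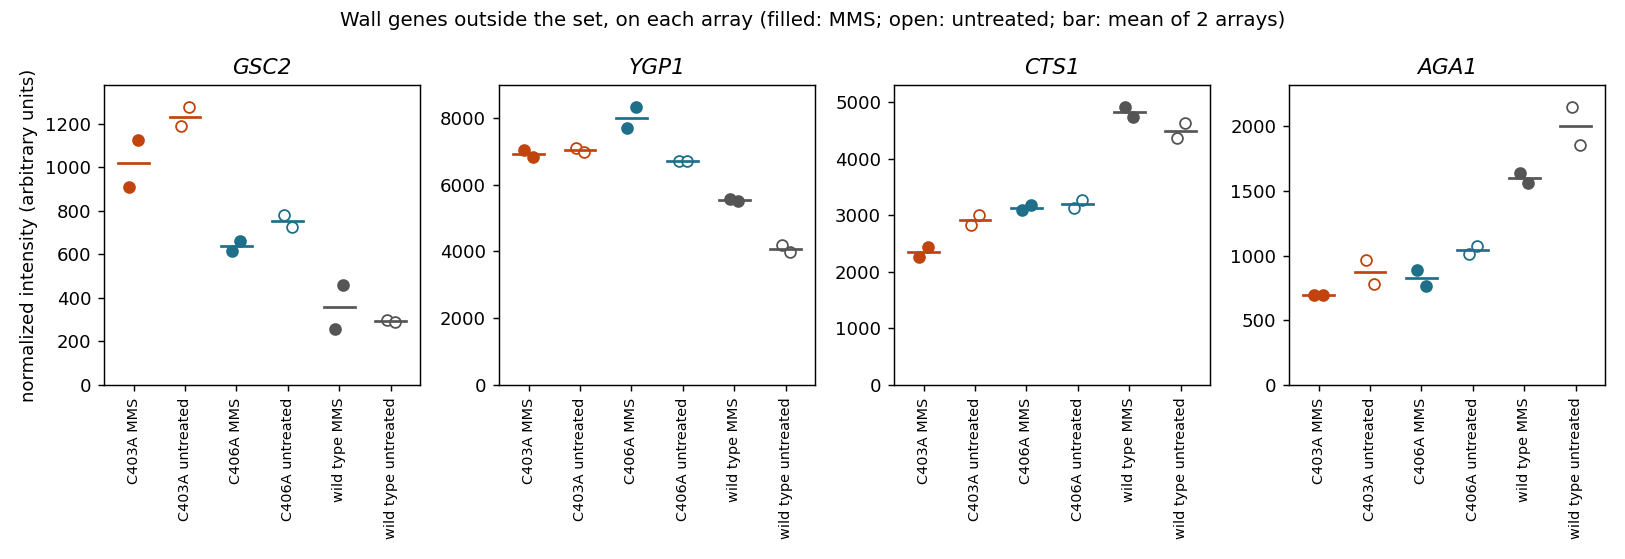
Normalized intensity (arbitrary units, linear axis from 0) of GSC2, YGP1, CTS1 and AGA1 on all 12 arrays, with the 6 groups along the horizontal axis, filled points for MMS, open points for untreated cells and a bar at the mean of 2 arrays. GSC2 and YGP1 lie above wild type, and CTS1 and AGA1 below it, on every C403A and C406A array of the same treatment.

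Of 32 tested genes of glucan and chitin enzymes, 5 rose and 3 fell in untreated C403A (9.16% and 4.97% of all genes), and 1 rose and 1 fell in untreated C406A (1.83% and 0.875%). With MMS, 6 rose and 6 fell in C403A (7.47% and 6.09% of all genes), and 2 rose and 2 fell in C406A (2.72% and 1.81%). GSC2 had the largest rise in both untreated mutants, and the endochitinase gene CTS1, whose product separates daughter from mother cells, was among those that fell. CTS1 gave 2261 and 2444 in C403A and 3086 and 3180 in C406A with MMS, against 4908 and 4735 in wild type with MMS. It fell by 1.04 ± 0.06 in C403A (adjusted p = 1.7e-05) and by 0.62 ± 0.06 in C406A with MMS (adjusted p = 0.00103), and by 0.63 ± 0.06 and 0.49 ± 0.06 in the untreated mutants (adjusted p = 0.000464 and 0.00429, limma). The C406A calls of CTS1 were lost as deposited and with the compared groups alone, and that with MMS also on hybridization controls. The untreated C403A call was lost with the compared groups alone.

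**Figure D5:**
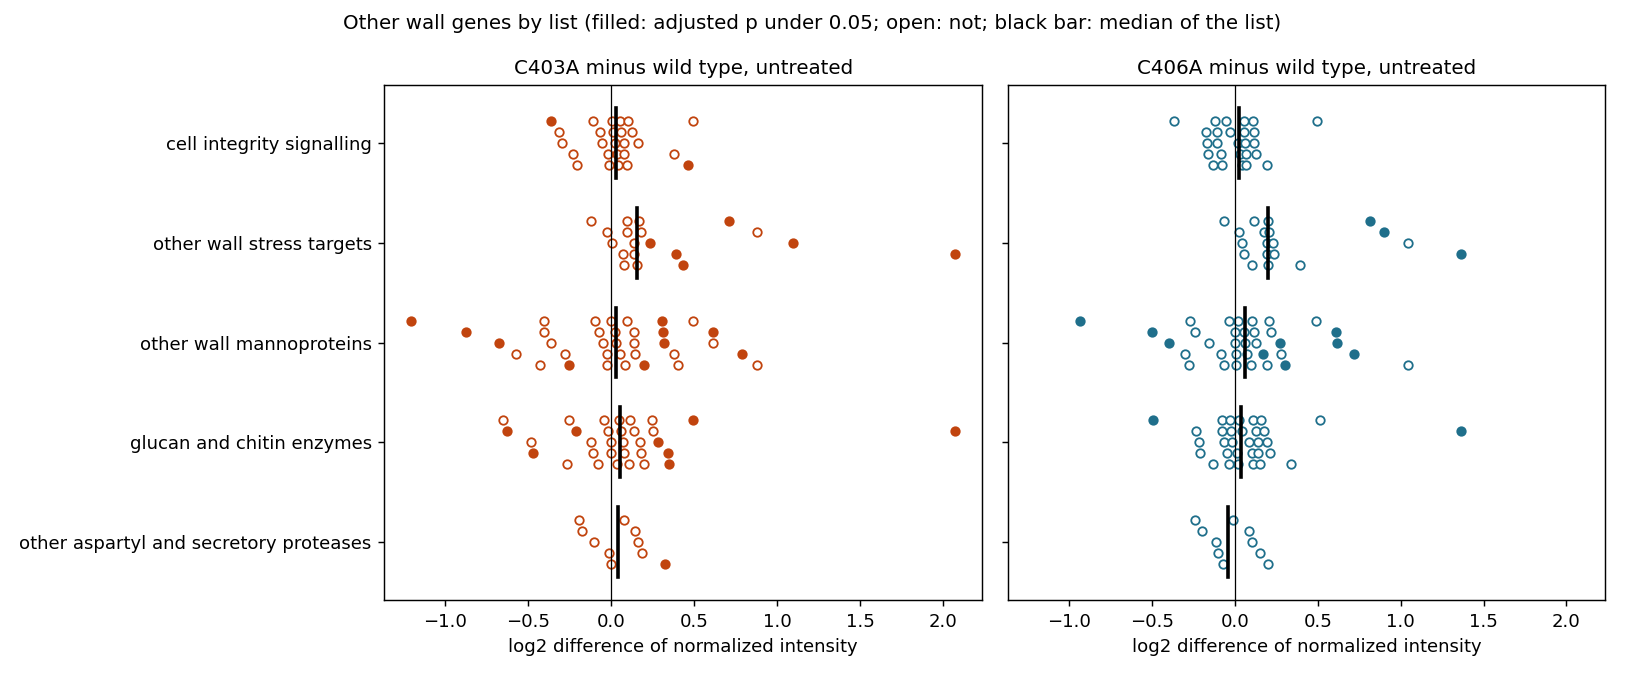
Log2 difference of normalized intensity, mutant minus wild type in untreated cells, of the tested genes of the 5 lists (1 point a gene), with C403A left and C406A right, filled points where adjusted p was under 0.05 and a black bar at the median of each list. Called points of the wall stress targets lie right of 0 in both panels, and those of the mannoproteins lie on both sides of it.

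Among 10 other tested aspartyl and secretory proteases, 1 rose and 0 fell in untreated C403A (9.16% and 4.97% of all genes), 1 rose and 2 fell in C403A with MMS (7.47% and 6.09%), and 0 passed in C406A under either condition. The gene that rose was another yapsin, YPS7, by 0.38 ± 0.09 with MMS (adjusted p = 0.0183) and by 0.32 ± 0.09 untreated (adjusted p = 0.0359, limma). Its call with MMS was lost without the first treated array of wild type (0.31, adjusted p = 0.113) and without that of C403A (0.32, adjusted p = 0.126), and its untreated call without any 1 of the 4 arrays compared (0.27 to 0.37, adjusted p 0.0697 to 0.157, limma).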

How the data were processed

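The values used are the one-colour signal intensity of 9335 Affymetrix probe sets on 12 arrays, on a linear scale, as deposited by the authors. The steps of probe summarization and scaling are not given in the sources used here, and 8.95% of the intensities were negative. The description recorded with each array run matched the strain and treatment of its label for all 12 arrays. The headers of the runs gave 1 scan day, so a block for scan day could not be fitted. The labels number no replicates, and arrays 1 and 2 of a group are in the order listed. The table held 0 columns of other samples.

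Array medians differed by a ratio of 1.69, over the limit of 1.5, so values were quantile-normalized over all probe sets but 60 controls. Values under the 20th percentile (34.5) were raised to it, and log2 taken. There were 6504 probe sets with 1 gene symbol, 328 with several and 2503 with none. The brightest single-symbol probe set stood for each of 5656 genes, and 287 genes above the floor on fewer than 2 arrays were left out. The 12 arrays entered 1 model of the 6 group means (limma 3.58.1 under R 4.3.3), with residual df 6, a trended eBayes prior and prior df 3.53, and p-values were Benjamini-Hochberg adjusted over the 5369 genes in each of 9 comparisons. The fit was tested on simulated data with independent noise and known changes in untreated C403A only. No scaling difference between arrays was simulated, so that test does not bear on how scaling changes the calls. Plots came from matplotlib 3.10.9 (Python 3.11.15).

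The members, lists and tests were chosen with earlier results of these data known. All members are named with all their probe sets; of each list, up to 2 called genes each way with the largest changes in a comparison; and the genes of highest Pearson's r with a member. The lists were cell integrity signalling, other wall stress targets, other wall mannoproteins, glucan and chitin enzymes, other aspartyl and secretory proteases, and mating-type markers; a further planned list is not reported here. Gene names and neighbours came from the R64 annotation; a planned search of promoter motifs was not run, and no sequence was used here. Alternatives were median scaling, 9 hybridization controls as the scale, the values as deposited, no floor (values under 1 set to 1), no filter, probe sets averaged per gene, no trend, the compared groups alone, and leaving out each array.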

Additional observations from a re-analysis of the deposited data

Results flagged for a closer look

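The MMS response of HPF1 in C403A differed from that in wild type by -0.61 ± 0.12 on the log2 scale in the interaction test (adjusted p = 0.0486, limma). The response was -0.13 ± 0.08 in C403A and 0.47 ± 0.08 in wild type.

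The MMS response of YPS6 in C403A differed from that in wild type by -1.35 ± 0.24 in the interaction test (adjusted p = 0.0371, limma). The response was 0.12 ± 0.17 in C403A and 1.47 ± 0.17 in wild type, and the untreated level of YPS6 was 1.18 ± 0.17 higher in C403A than in wild type. Both interaction calls were lost without single arrays, as given above.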

How the results depend on the processing

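Of the 25 calls among the members, 2 changed sign under an alternative, both on the values as deposited and both in the MMS response of C406A: PIR1 became 0.11 and RLM1 0.073. The YPS3 value of that response, which had not passed, became 0.091 there. Scaled to hybridization controls, the differences of the C406A response from the wild-type response became 0.0025 for HPF1 and 0.060 for YPS6. These scalings moved all genes: the median over genes was 0.43 in that response as deposited and 0.34 in that interaction on hybridization controls, and 42 of the 65 uncalled values changed sign under some setting.

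The number of members called fell with the values as deposited to 2 in C403A and 1 in C406A against wild type with MMS, to 3 in C403A and 0 in C406A untreated, and to 0 in the C403A response and the C403A interaction. On hybridization controls it was 2 in untreated C403A, 1 in untreated C406A, 1 in C406A with MMS, 0 in the C403A interaction and 2 in each MMS response. The C406A response had 2 rises and 0 falls there and 3 rises and 0 falls as deposited, against 1 rise and 2 falls after quantile normalization. Median scaling gave 5 in the C406A response, 4 in the wild-type response, 3 in C403A with MMS, 2 in C406A with MMS and 0 in the C403A interaction. With no filter it was 1 in untreated C406A, 2 in C403A with MMS and 2 in the C403A response, and with no trend it was the same for these, 1 in the C403A interaction and 2 in the C406A response. With the compared groups alone, which leaves few residual degrees of freedom, it was 2 in C403A with MMS, 2 in the C406A response and 0 in untreated C403A, untreated C406A, C406A with MMS, the C403A response and the C403A interaction. Leaving out 1 array gave 1 to 3 calls in the C403A response, 1 to 4 in the C406A response, 3 to 5 in untreated C403A, 0 to 2 in untreated C406A, 2 to 4 in C403A with MMS, 2 to 4 in C406A with MMS and 0 to 1 in the C403A interaction. The wild-type response had 3 calls with any 1 array left out. The shares of all genes that passed under these settings are not given here, so the counts describe the members alone. The cause of the changes in the counts was not tested. No paired analysis was possible because the labels number no replicates. With 2 arrays a group, a value that misses the threshold is not shown to be equal between groups.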
